A study of Mus musculus with 6 samples.

Results

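The genes described here are 44 interferon-stimulated and interferon signalling genes, taken by their symbols from a table of 21606 genes, with the IFITM and MHC genes left out. The symbols were listed for what the genes do, with earlier results of these data known, and all 44 had a row in the table. RNA was measured in ALDHbr cells of the bone marrow, cells in which the enzyme aldehyde dehydrogenase is highly active and which are known to be rich in progenitors, from 3 male and 3 female samples of C57BL/6 mice labelled wild type. No treatment and no age are given in the labels, and sex is the only factor that separates the groups there. Libraries were made by BRB-seq, a bulk method that gives each sample a barcode at reverse transcription from the poly(A) tail and then amplifies the samples as a pool. Whether each replicate is its own animal is not stated, so a p-value here reflects the scatter among these 6 samples, and that scatter may be technical.

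Interferons are cytokines that put cells into an antiviral state. Type I interferons bind the receptor chains IFNAR1 and IFNAR2, whose kinases TYK2 and JAK1 phosphorylate STAT proteins, STAT2 among them. A complex of these with IRF9 enters the nucleus and binds the interferon-stimulated response element (ISRE) of their target genes. Interferon gamma binds IFNGR1 and IFNGR2, and its signal ends at another motif, the gamma-activated site (GAS). In the marrow, type I interferons are known for driving dormant stem cells into cycle, and a low tonic signal is thought to keep the signalling proteins in supply. Target genes include the sensors of foreign RNA, the IFIT, OAS and MX antiviral proteins, the ubiquitin-like protein ISG15 and the guanylate-binding proteins.

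Promoter sequence is shown for 6 of the genes because the factors of the pathway are known to bind such motifs, and because the genes span the range of levels given below. RefSeq windows of 300 bases (250 before and 50 after a start, GRCm38.p6) were held for 34 of the 44 genes. There was none for Oas2, Mx1, Mx2, Dhx58, Zbp1, Parp9, Parp14, Ifi27, Usp18 and Rtp4. The ISRE core was searched on both strands as GAAA, any 2 bases, then GAAA again, and the GAS core as TTCNNNGAA, which reads the same on both strands. Matches of a motif could overlap each other. An ISRE match lay in at least 1 window of 15 of the 34 genes (44.1%), and of 3.99% of all 27025 genes with a window. A GAS match lay in 12 of the 34 (35.3%), and in 9.55% of all genes. The 250 bases before the start follow, 5′ to 3′ on the gene's own strand, in lower case with every motif match in capitals. In Gbp3, Isg15 and Ifit1 the capitals are ISRE matches, which overlap each other in Gbp3 and Isg15. In Irf1 and Ifnar2 they are a GAS match. In Oas1a the run nearer the start holds overlapping ISRE matches and the other run is a GAS match.
Gbp3 (chr3:142559794-142560043, plus strand): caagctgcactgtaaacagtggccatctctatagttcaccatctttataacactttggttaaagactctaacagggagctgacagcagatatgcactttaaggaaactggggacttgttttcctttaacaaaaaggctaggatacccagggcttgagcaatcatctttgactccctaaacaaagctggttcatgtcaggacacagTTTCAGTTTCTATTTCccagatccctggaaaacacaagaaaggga
Isg15 (chr4:156200819-156201068, minus strand): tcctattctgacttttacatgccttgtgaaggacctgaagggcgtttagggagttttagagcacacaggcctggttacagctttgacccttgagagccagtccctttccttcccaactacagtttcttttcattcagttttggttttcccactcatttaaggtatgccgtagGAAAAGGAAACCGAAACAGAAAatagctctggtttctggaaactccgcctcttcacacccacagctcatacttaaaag
Ifit1 (chr19:34640639-34640888, plus strand): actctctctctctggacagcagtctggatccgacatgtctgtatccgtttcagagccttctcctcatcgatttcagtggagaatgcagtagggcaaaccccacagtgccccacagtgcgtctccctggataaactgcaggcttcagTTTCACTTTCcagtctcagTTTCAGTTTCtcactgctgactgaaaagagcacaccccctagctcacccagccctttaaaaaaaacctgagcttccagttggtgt
Oas1a (chr5:120907526-120907775, minus strand): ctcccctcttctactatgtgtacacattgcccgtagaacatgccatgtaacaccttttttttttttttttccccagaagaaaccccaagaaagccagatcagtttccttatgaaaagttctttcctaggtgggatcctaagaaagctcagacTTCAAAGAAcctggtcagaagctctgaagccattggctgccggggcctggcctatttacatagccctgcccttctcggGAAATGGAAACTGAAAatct
Irf1 (chr11:53769764-53770013, plus strand): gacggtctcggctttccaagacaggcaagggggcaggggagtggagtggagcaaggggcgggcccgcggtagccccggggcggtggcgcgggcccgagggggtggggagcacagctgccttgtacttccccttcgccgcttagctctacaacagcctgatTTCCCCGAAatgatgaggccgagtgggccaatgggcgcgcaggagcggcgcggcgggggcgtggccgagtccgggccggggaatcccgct
Ifnar2 (chr16:91372533-91372782, plus strand): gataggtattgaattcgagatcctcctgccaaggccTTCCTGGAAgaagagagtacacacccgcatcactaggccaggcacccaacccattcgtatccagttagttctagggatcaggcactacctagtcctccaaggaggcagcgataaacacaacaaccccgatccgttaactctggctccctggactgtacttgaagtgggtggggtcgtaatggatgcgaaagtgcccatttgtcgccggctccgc

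The labels were checked against marker genes. Ddx3y and Eif2s3y, which lie on the Y chromosome, had 49 to 81 counts in each male library and 0 in the female ones, and Xist had 0 to 2 counts in male and 225 to 297 in female libraries, so all 6 libraries matched their labelled sex. The 7 markers of myeloid progenitors were all present, with levels in CPM (counts per 1000000 of the scaled library). Male and female means ran from 67.1 and 72.9 CPM (Kit) to 6332 and 7639 CPM (Mpo). They summed to 13540 to 14600 CPM in male and 15110 to 15780 CPM in female libraries. Monocyte and macrophage markers, led by Ly6c2, summed to 3687 to 4116 and 3824 to 4302 CPM. Plasma cell markers, mostly Jchain, summed to 800 to 1040 and 969 to 1000 CPM, and stem cell markers to 181 to 227 and 175.5 to 192 CPM. Levels below are of the whole sample, and which cells carried them was not tested. The 7 markers of mature neutrophils summed to only 14.5 to 23.3 CPM in male and 18.5 to 19.2 CPM in female libraries, and Mmp8 alone had enough counts for a test. Total counts per library ran from 679724 to 880074 in males and from 1199551 to 1475224 in females, so the male libraries measured low genes less precisely. Male replicate 2 had the fewest counts and the largest share of mitochondrial ribosomal RNA (5.27%).

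At rest, these 44 interferon genes were a small part of this transcriptome, and among them the signalling genes carried more counts than the antiviral genes. The 44 genes together held 0.121% ± 0.010 of counts in male and 0.138% ± 0.004 in female libraries (SD, n = 3 each). Of the 11 receptors, JAK-STAT members and interferon regulatory factors, 10 had enough counts for a test of sex, and the 11 had a median level of 48.8 CPM over the 6 libraries (8.77 CPM per kilobase of exon). They took 54.5% of all counts of the 44 genes. Of the other 33 genes, 15 had enough counts, and the median of the 33 was 5.82 CPM (1.47 per kilobase). Over all genes of the table, 39.2% had enough counts, and the median level was 2.57 CPM over all rows and 43.2 CPM over tested ones. The 13 genes made up of the IFIT, OAS and MX members with Isg15, Usp18 and Rsad2, known as strongly inducible, had a median of 2.01 CPM (0.621 per kilobase). They took 2.82% of the counts of the 44 genes, and only Ifit2 among them could be tested.

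**Figure D1:**
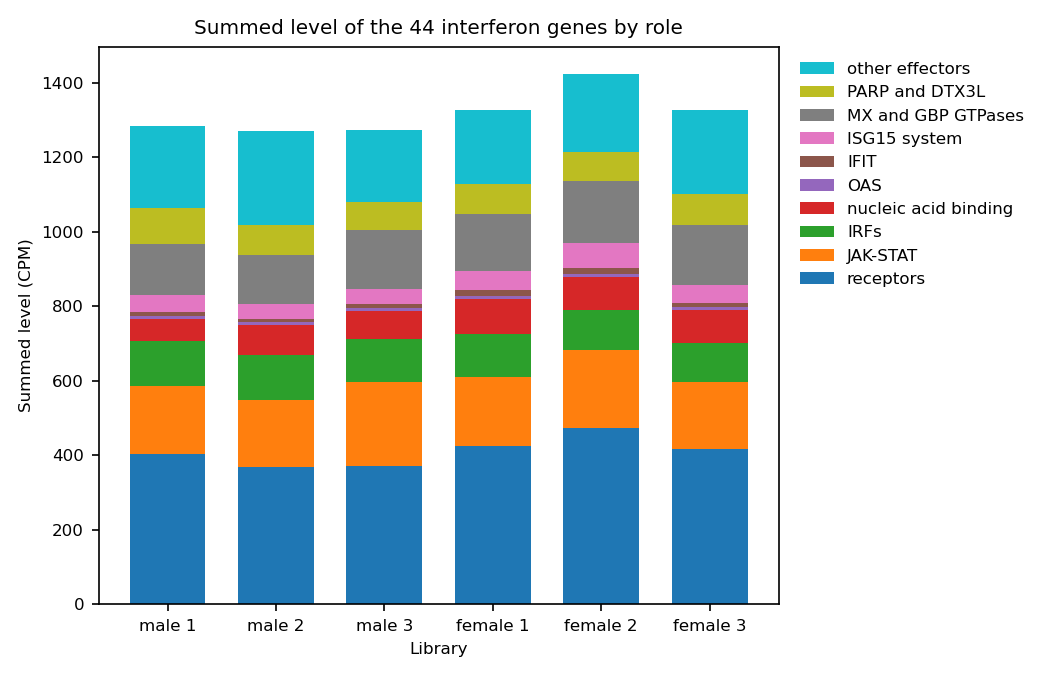
Summed level in CPM of the 44 interferon genes in each library (3 male, 3 female), stacked by role. Receptors are the largest block in every library, and the IFIT and OAS blocks are thin bands. The bars reach 1269 to 1283 CPM in male and 1326 to 1424 CPM in female libraries.

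Levels are CPM of 3′ tag counts, scaled by TMM, a factor per library that aligns most genes. After a level ± is the SD over 3 libraries, and after a log2 fold change it is the SE of the fit. Reads of this method start near the poly(A) tail, so a count should not grow with transcript length, but levels of different genes are also given per kilobase of exon where they are set side by side. Ifngr1, the ligand-binding chain of the interferon gamma receptor, had the highest level on either scale, with a mean of 163 CPM over the 6 libraries and 57.2 CPM per kilobase. Samhd1, an enzyme that breaks down deoxynucleotides and so starves reverse transcribing viruses, was next in CPM (128) but was the seventh per kilobase (14.0). Ifnar2 followed (114 CPM, 34.4 per kilobase), with Ifngr2 (93.7 CPM, 24.9 per kilobase) and the GTPase gene Gbp3 (90.2 CPM, 27.6 per kilobase). These 5 genes held 45.1% of the counts of the 44. At the other end, Oas2, Ifit3b and Ifit3 were the lowest on both scales, with 0.128, 0.448 and 0.463 CPM.

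No interferon gene passed the threshold for a difference between male and female cells. Of the 25 genes with enough counts, 0 were higher and 0 were lower in male cells at an adjusted p under 0.05 (edgeR's quasi-likelihood test, adjusted by Benjamini-Hochberg across the 8460 genes tested). Of all tested genes 0.579% were called, 0.426% higher and 0.154% lower in males. DESeq2 and limma-voom called 0 of the 25 as well, where they called 0.485% of all genes each. At an unadjusted p under 0.05 each of the 3 tools called 1 of the 25, where edgeR called 11.3% of all tested genes, DESeq2 5.9% and limma-voom 11.0%. Adjusted p-values of the 25 ran from 0.246 to 0.998 with edgeR. Log2 fold changes, male minus female, ran from -0.46 for Eif2ak2 to 0.48 for Stat2, and 18 of the 25 lay below 0, where 50.7% of all tested genes did. Their median was -0.10, and -0.003 over all tested genes. For 21 of the 25 the 95% interval of the log2 fold change lay within -1 and 1, as it did for 87.4% of all tested genes. The intervals of Adar, Ifit2, Gbp2 and Stat2 reached past a doubling or a halving. Of the 25 genes, 22 passed the depth filter through all 6 libraries, while Ifih1 reached its level in every female library and fewer male ones, and Gbp2 and Ifit2 did so in every library of neither sex. Scaled by library size only, 29 genes of the whole table were called higher and 23 lower in males, in place of 36 and 13, and 0 of the 25 in either direction.

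**Figure D2:**
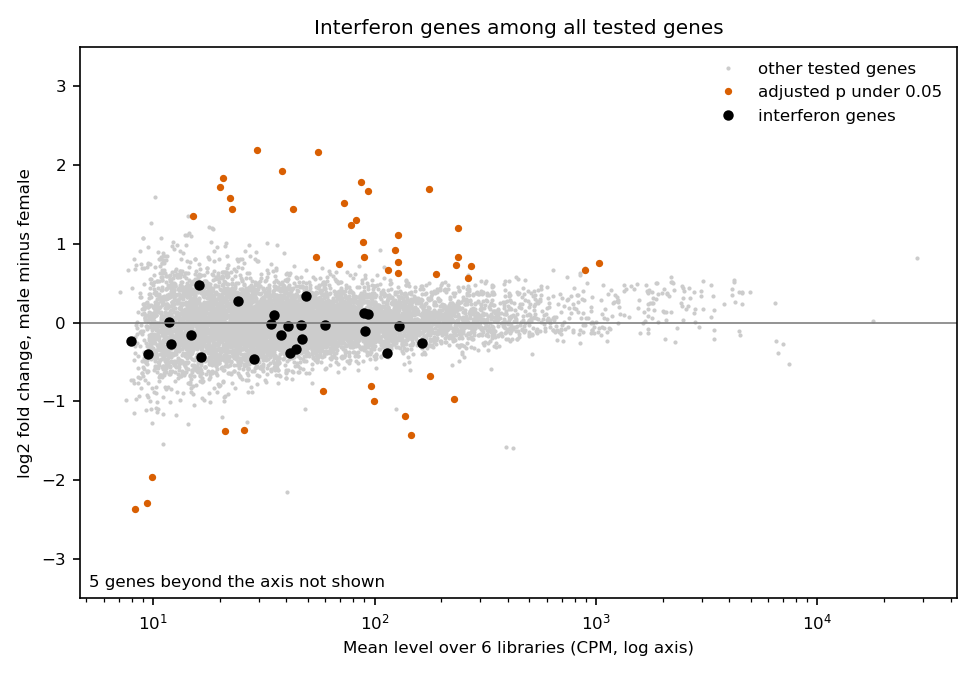
Log2 fold change, male minus female, against the mean level in CPM (log axis) for the 8460 tested genes. The 25 tested interferon genes (black) lie between -0.46 and 0.48, among the genes that were not called. Orange points are genes with an adjusted p under 0.05 by edgeR's quasi-likelihood test.

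The receptor chains were tested in full, and 3 of their 4 fold changes lay below 0, where 50.7% of all tested genes did. Ifnar2 (ENSMUSG00000022971; chromosome 16, 91372783 to 91405589, GRCm38, GENCODE M21) encodes the high-affinity chain of the type I receptor. It had 107, 86.5 and 102 CPM in male replicates 1 to 3, and 129, 125 and 137 CPM in the female ones. All 3 male libraries lay below all 3 female ones. The means were 98.7 ± 10.8 CPM in males and 130.2 ± 6.28 CPM in females (SD, n = 3 each). The log2 fold change was -0.39 ± 0.13 (SE; 95% interval -0.66 to -0.11), with the smallest p of the 25 genes (0.00855 before adjustment). Its adjusted p was 0.246 with edgeR's quasi-likelihood fit, so it did not pass. Over 14 alternatives its fold change stayed between -0.47 and -0.31 and its adjusted p between 0.089 and 0.738, with the lowest p when male replicate 1 was left out. Ifnar2 shares 315 exon bases on its own strand with Gm21970, a gene with no row in the table, so reads of that gene could not be told apart.

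Ifnar1, the other chain of the type I receptor, lies near Ifnar2 on chromosome 16 (91485238 to 91507441). Its levels were 33.8, 36.6 and 37.4 CPM in male and 41.1, 39.3 and 39.2 CPM in female libraries. The groups did not overlap here either, but the gap was narrow, and the log2 fold change was -0.15 ± 0.20 (adjusted p = 0.841, edgeR's quasi-likelihood test). Among the 25 genes, 4 had all male libraries below all female ones (Ifnar1, Ifnar2, Eif2ak2 and Gbp7) and 1 had all male libraries above (Stat2). Over all tested genes this held for 8.03% below and 7.57% above.

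Ifngr1 (chromosome 10, 19591949 to 19610229) had 161, 155 and 130.1 CPM in male and 169.9, 209 and 154 CPM in female libraries. The ranges overlapped, with female replicate 2 the highest, and the log2 fold change was -0.26 ± 0.14 (95% interval -0.55 to 0.02, adjusted p = 0.483). Ifngr2, the signalling chain of that receptor, is in the same stretch of chromosome 16 as the type I receptor genes (91547072 to 91565623). It had 87, 54 and 83 counts in male and 106, 148 and 111 counts in female libraries, which is 89.8 to 101 CPM in males and 85.4 to 100.2 CPM in females, with a log2 fold change of 0.11 ± 0.14 (adjusted p = 0.842). The 4 receptor chains summed to 367 to 403 CPM in male and 416 to 473 CPM in female libraries, which did not overlap. This sum over chosen genes was not tested.

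The kinases and the transcription factor subunits that follow the receptors did not differ past the threshold. Jak1, the kinase shared by both receptors, had 83.9, 81.5 and 116 CPM in male and 80.5, 94.2 and 84.7 CPM in female libraries. Male replicate 3 stood above the rest, and without it the log2 fold change changed sign (0.12 ± 0.15 with all libraries, -0.06 without). Tyk2, the kinase of IFNAR1, had 38.4, 38.2 and 43.4 CPM in male and 39.5, 44.03 and 40.02 CPM in female libraries, the narrowest spread of the 25 genes. Its highest library was 1.15 times its lowest.

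Stat2, which carries the transactivation domain of the type I complex, had 15.1, 20.0 and 21.7 CPM in male libraries and 12.9, 14.2 and 13.1 CPM in female ones. All male libraries lay above all female ones, but the counts were low (43 in males and 54 in females in all). The log2 fold change of 0.48 ± 0.29 (95% interval -0.12 to 1.08, adjusted p = 0.563) was the highest of the 25 and did not pass. Irf9, the DNA-binding subunit of that complex, had 44.3, 41.6 and 45.8 CPM in male and 52.4, 56.2 and 43.1 CPM in female libraries, and a log2 fold change of -0.20 ± 0.18. Irf9 shares 123 exon bases with its neighbour Rnf31 on the same strand.

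Irf1 and Irf2, an activator and an antagonist at the same kind of target site, had mean levels of 12.3 and 8.08 CPM per kilobase. Irf1 had 60.6, 56.5 and 47.0 CPM in male and 40.3, 50.1 and 38.5 CPM in female libraries. Only male replicate 3 fell within the female range, and the log2 fold change was 0.34 ± 0.19 (95% interval -0.05 to 0.72, adjusted p = 0.515). Irf2 had 57.1, 54.9 and 65.1 CPM in male and 63.6, 55.5 and 62.3 CPM in female libraries, with a log2 fold change of -0.02 ± 0.16. Irf7, the factor that amplifies type I interferon production and is itself induced by it, had only 4, 5 and 2 counts in male and 15, 3 and 6 in female libraries. Female replicate 1 held most of the female counts, and the gene was too low for a test.

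**Figure D3:**
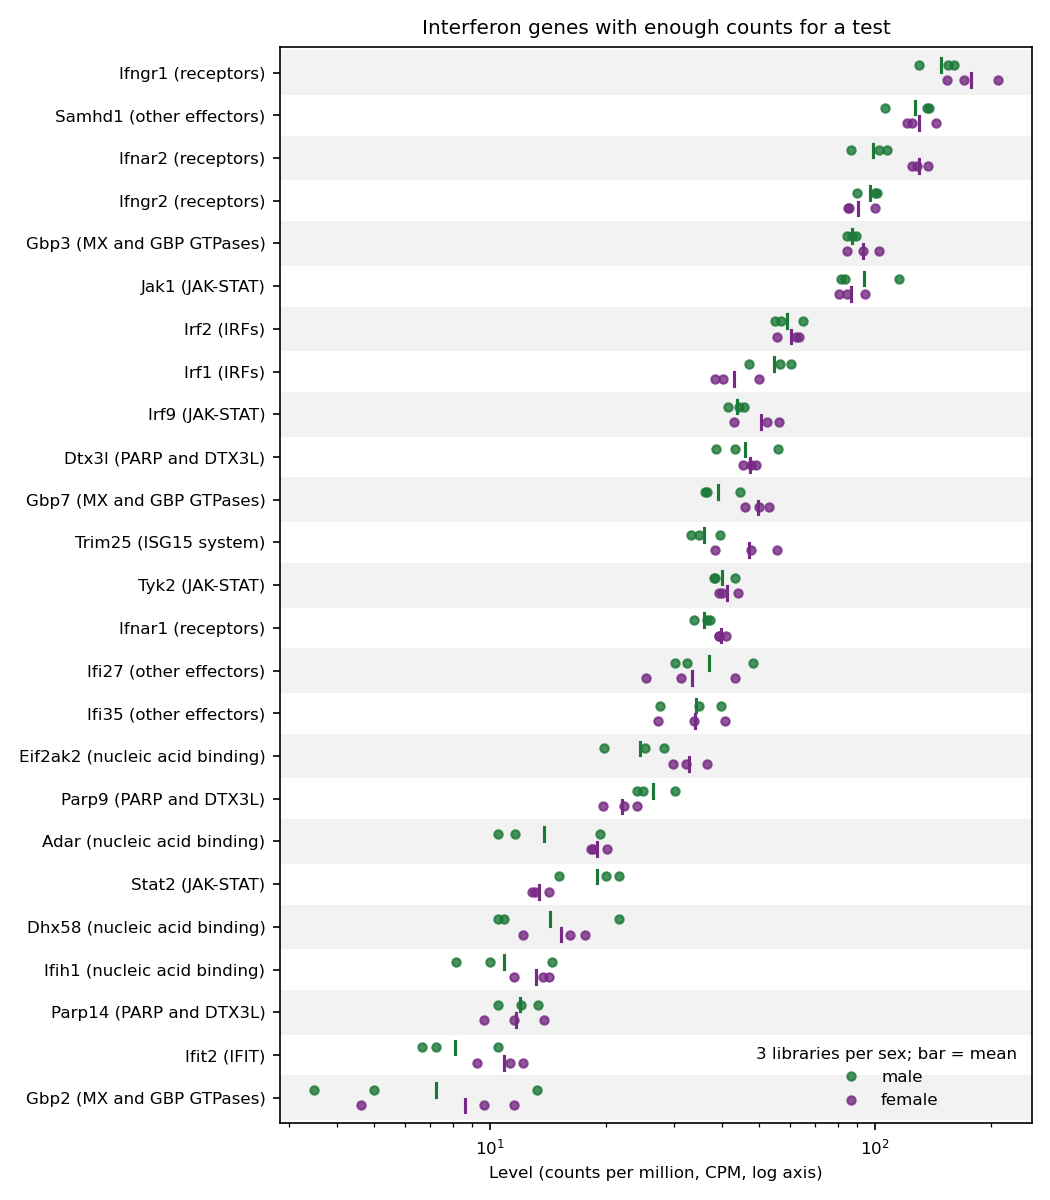
Level in CPM (log axis) of the 25 tested interferon genes in each library, with male points above female points in each row and a bar at the mean. Rows run from Ifngr1 (mean 163 CPM) to Gbp2 (7.92 CPM). Ifnar2, Ifnar1, Eif2ak2 and Gbp7 have every male point left of every female point, and Stat2 every male point to the right.

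Among the proteins that bind nucleic acids, 4 of 6 genes could be tested. All 4 fold changes lay below 0 without passing, where 50.7% of all tested genes lay below 0. Eif2ak2 encodes PKR, a kinase that stops translation when it binds double-stranded RNA. It had 19.8, 28.3 and 25.3 CPM in male and 29.8, 36.6 and 32.3 CPM in female libraries, which did not overlap. Its log2 fold change, -0.46 ± 0.23 (95% interval -0.94 to 0.03, adjusted p = 0.476), was the lowest of the 25. Adar, which edits adenosine to inosine in double-stranded RNA, had means of 13.8 ± 4.78 CPM in males and 19.0 ± 1.02 CPM in females (log2 fold change -0.44 ± 0.30). Adar shares 1365 exon bases with Chrnb2 on the opposite strand, and the sources used here do not say whether strand was used in counting. Ifih1, the sensor MDA5 of long double-stranded RNA, and Dhx58, its regulator LGP2, had log2 fold changes of -0.27 ± 0.34 and -0.16 ± 0.33. Ifih1 ran from 8.15 to 14.5 CPM in male and from 11.5 to 14.2 CPM in female libraries, and Dhx58 from 10.5 to 21.6 CPM in male and from 12.2 to 17.7 CPM in female ones. Ddx58, the sensor RIG-I, had 12 counts in male and 18 in female libraries, and Zbp1, a sensor of Z-form nucleic acids, had 7 in male and 20 in female libraries. Given the smaller male libraries, Ddx58 averaged 5.18 CPM in males and 4.44 CPM in females, and Zbp1 3.09 and 5.115 CPM.

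The guanylate-binding proteins, GTPases that coat vacuoles of intracellular pathogens, included Gbp3, which per kilobase of exon stood above every other induced effector of the list. In CPM Samhd1 stood higher (128 against 90.2). Gbp3 had 87.4, 84.8 and 89.2 CPM in male and 84.6, 102 and 93.1 CPM in female libraries, and a log2 fold change of -0.10 ± 0.14. Gbp7 had 36.1, 36.6 and 44.6 CPM in male and 49.9, 46.1 and 53.1 CPM in female libraries. The groups did not overlap, and the log2 fold change was -0.34 ± 0.19 (95% interval -0.72 to 0.05, adjusted p = 0.521). Gbp2 was the most variable of the 25, with 3.49, 4.99 and 13.2 CPM in male and 9.66, 11.5 and 4.62 CPM in female libraries. Its log2 fold change was -0.23 ± 0.48 with all libraries, -1.06 without male replicate 3 and 0.16 without male replicate 1. These genes lie close together on chromosome 3, from 142530342 (Gbp7) to 142638008 (Gbp2). Of the 81-base windows in the last 500 bases of Gbp3 transcripts, 1.11% also occur in Gbp7, so few reads there could be split.

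Mx1 and Mx2, GTPases that block viral replication, were low, with 12 and 6 counts in male and 27 and 6 in female libraries. Their means were 4.92 and 2.52 CPM in males and 6.72 and 1.525 CPM in females. C57BL/6 mice are known to carry an inactive Mx1 allele, so its transcript does not stand for a working protein.

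Trim25, Parp9, Parp14 and Dtx3l could be tested too. Trim25, a ubiquitin ligase that activates RIG-I, had 39.6, 33.3 and 34.9 CPM in male and 47.5, 55.5 and 38.5 CPM in female libraries, and a log2 fold change of -0.39 ± 0.20 (95% interval -0.81 to 0.03, adjusted p = 0.483). Only male replicate 1 reached into the female range. Dtx3l, a ubiquitin ligase that works with PARP9, had 55.9, 43.2 and 38.6 CPM in male and 49.1, 45.4 and 47.7 CPM in female libraries (log2 fold change -0.03 ± 0.19). Parp9 and Parp14, ADP-ribosyltransferase family members, had log2 fold changes of 0.28 ± 0.24 and 0.01 ± 0.34. Parp9 ran from 24.1 to 30.3 CPM in male and from 19.6 to 24.2 CPM in female libraries, and Parp14 from 10.5 to 13.3 CPM in male and from 9.66 to 13.8 CPM in female ones. Dtx3l and Parp9 start head to head on chromosome 16 and share 458 exon bases on opposite strands.

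Samhd1 had 136, 138 and 106 CPM in male and 125, 121 and 144 CPM in female libraries, with a log2 fold change of -0.04 ± 0.14 (95% interval -0.33 to 0.24). Ifi27, which encodes a membrane protein of mitochondria and the nuclear envelope, had means of 37.0 ± 9.78 CPM in males and 33.4 ± 9.14 CPM in females. Ifi35, a partner of the interferon-induced protein NMI, had 34.2 ± 6.13 CPM in males and 34.0 ± 6.71 CPM in females. Their log2 fold changes were 0.09 ± 0.24 and -0.02 ± 0.22.

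**Figure D4:**
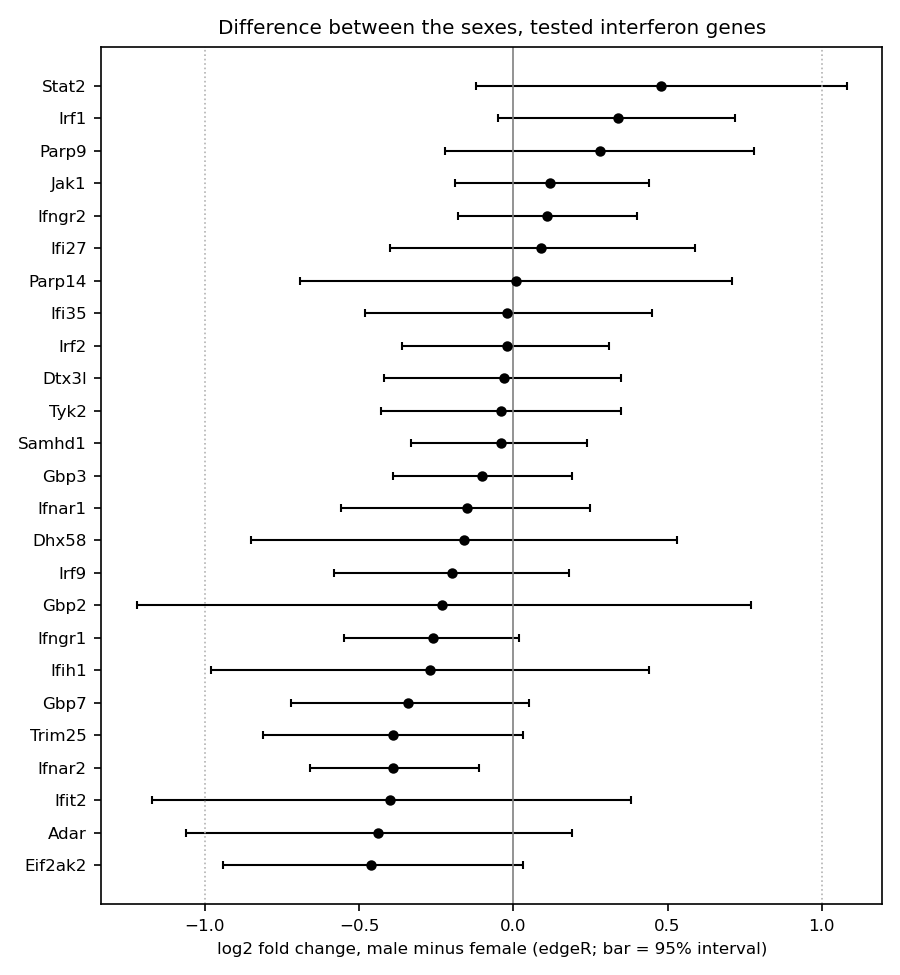
Log2 fold change, male minus female, of the 25 tested interferon genes with 95% intervals (edgeR's quasi-likelihood fit). Only the interval of Ifnar2 (-0.66 to -0.11) leaves out 0 before adjustment. Dotted lines mark a doubling and a halving.

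The IFIT, OAS and ISG15 genes had few counts in both sexes. Ifit1, Ifit3 and Ifit3b, which bind foreign RNA or join proteins that do, had 3, 1 and 1 counts in all male libraries together, and 9, 2 and 2 in all female ones. Of the 9 female counts of Ifit1, 7 were in female replicate 2. Ifit2 was the exception in this family, with 10.5, 6.65 and 7.23 CPM in male and 11.3, 12.2 and 9.24 CPM in female libraries (log2 fold change -0.40 ± 0.38, 95% interval -1.17 to 0.38). All 4 IFIT genes lie together on chromosome 19, from 34550694 (Ifit2) to 34650009 (Ifit1). Ifit3 and Ifit3b resemble each other, and 8.57% of the 81-base windows at the Ifit3 end also occur in Ifit3b.

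The OAS genes encode enzymes that make the oligoadenylates which activate RNase L, or relatives of them. Oasl2, the highest of these on both scales, had 4, 5 and 3 counts in male and 5, 6 and 4 in female libraries. That is 5.53 CPM in males and 3.72 CPM in females on average. Oas3 had 6 counts in each sex (means of 2.55 CPM in males and 1.47 CPM in females) and Oas2 a single count, in female replicate 3. Oas1a had 0 counts in every male library and 5, 1 and 4 in the female ones. Against a floor of 3 counts over the male group, and with the 10 female counts taken as they stand, Oas1a was at least 1.90-fold lower in males. The exact 95% binomial interval of the male to female ratio, which also holds the counting error of the female libraries, reached up to 0.783. In an edgeR quasi-likelihood fit with no filter on depth, its adjusted p was 0.380. Of the 81-base windows at the Oas1a end, 43.8% also occur in Oas1g, so its reads could be split with that copy.

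Isg15, the ubiquitin-like modifier, had 4, 3 and 2 counts in male and 4, 9 and 7 in female libraries, and Usp18, the protease that removes it and dampens the receptor, had 6 and 13 counts in all. Per kilobase of exon Isg15 stood higher among the 44 genes (the seventeenth) than in CPM (the thirty-second), as its transcript is short. Rsad2, the antiviral enzyme viperin, had 3 counts in male and 4 in female libraries, or means of 1.36 and 0.988 CPM. Rtp4 had 7 and 4, Ifi44 had 6 and 14, and Xaf1, a promoter of cell death, had 15 in each sex.

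Isg20, an exonuclease of viral RNA, had the highest CPM of the genes below the depth filter, and was next to Isg15 among them per kilobase. It had 8, 8 and 7 counts in male and 6, 8 and 7 in female libraries, which is 10.3 CPM in males and 5.21 CPM in females on average, given the smaller male libraries. All male libraries lay above all female ones in CPM. The ratio of male to female level was 1.92, with an exact 95% binomial interval of 1.02 to 3.65 that covers counting error only. With no filter on depth the adjusted p was 0.761. In that fit of all 21606 genes 0 of the 44 were called, where 0.537% of all genes were. At an unadjusted p under 0.05 it gave 6 of the 44, where 6.31% of all genes passed. Of these 6, 2 (Oas1a and Isg20) were among the 19 genes left out by the filter.

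The 19 genes below the filter together had 140 counts in male and 231 in female libraries. Their summed level was 57.1, 63.2 and 63.9 CPM in male and 62.0, 53.5 and 57.7 CPM in female libraries, which overlapped. The 25 tested genes summed to 1226, 1206 and 1209 CPM in male and 1264, 1371 and 1270 CPM in female libraries, which did not overlap. Such a sum over chosen genes was not tested. Markers of other cell types and of stress also had unequal levels in these groups. The B cell list, of which 2 of 7 genes could be tested and Ms4a1 was called lower in males (adjusted p = 0.0131, edgeR's quasi-likelihood test), summed to 61.5 to 72.2 CPM in male and 90.2 to 96.2 CPM in female libraries. Its members did not all lie the same way, with lower male means for Cd79b (54.2 against 65.0 CPM) and Pax5 (0.776 against 2.95), about equal means for Cd79a (2.92 against 2.90) and higher male means for Vpreb1 (1.73 against 1.19) and Igll1 (2.41 against 0.494), on few counts. The myeloid progenitor sums given above lay lower in every male library as well, with 0 of 7 genes called. Male means were lower for Mpo, Elane, Prtn3 and Kit. They were higher for Ctsg (1824 against 1613 CPM), Cd34 (366 against 336) and Ms4a3 (389 against 376). Erythroid genes, of which Car1 and Car2 were called higher in males, summed to 218 to 359 CPM in male and 94.2 to 107 CPM in female libraries. Most of that sum was Car1 and Car2. Hba-a1 alone among them had a lower male mean (2.29 against 2.97 CPM), on few counts. Megakaryocyte genes, of which 1 of 5 could be tested and was called higher in males (Pf4, log2 fold change 1.92 ± 0.31, adjusted p = 0.00107, same edgeR fit), summed to 39.6 to 111 CPM in male and 22.35 to 31.4 CPM in female libraries. T and NK cell genes, 5 of 9 in the table and 0 called, summed to 153 to 170 CPM in male and 128.7 to 148.5 CPM in female libraries, and nearly all of it was Nkg7. The 13 immediate-early genes, 10 of them called higher in males, summed to 3828 to 5399 CPM in male and 2955 to 3233 CPM in female libraries. Lung epithelial genes, 5 of 7 testable and 0 called, summed to 236 to 471 CPM in male and 151 to 206 CPM in female libraries. Epcam alone among them had a lower male mean (0.388 against 2.24 CPM), on few counts. The 6 libraries shared their barcode pool with 10 lung samples, which were not analysed here. The part of these markers in the interferon values was not tested, and in bulk samples fewer cells of a type and less RNA per cell cannot be told apart.

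**Figure D5:**
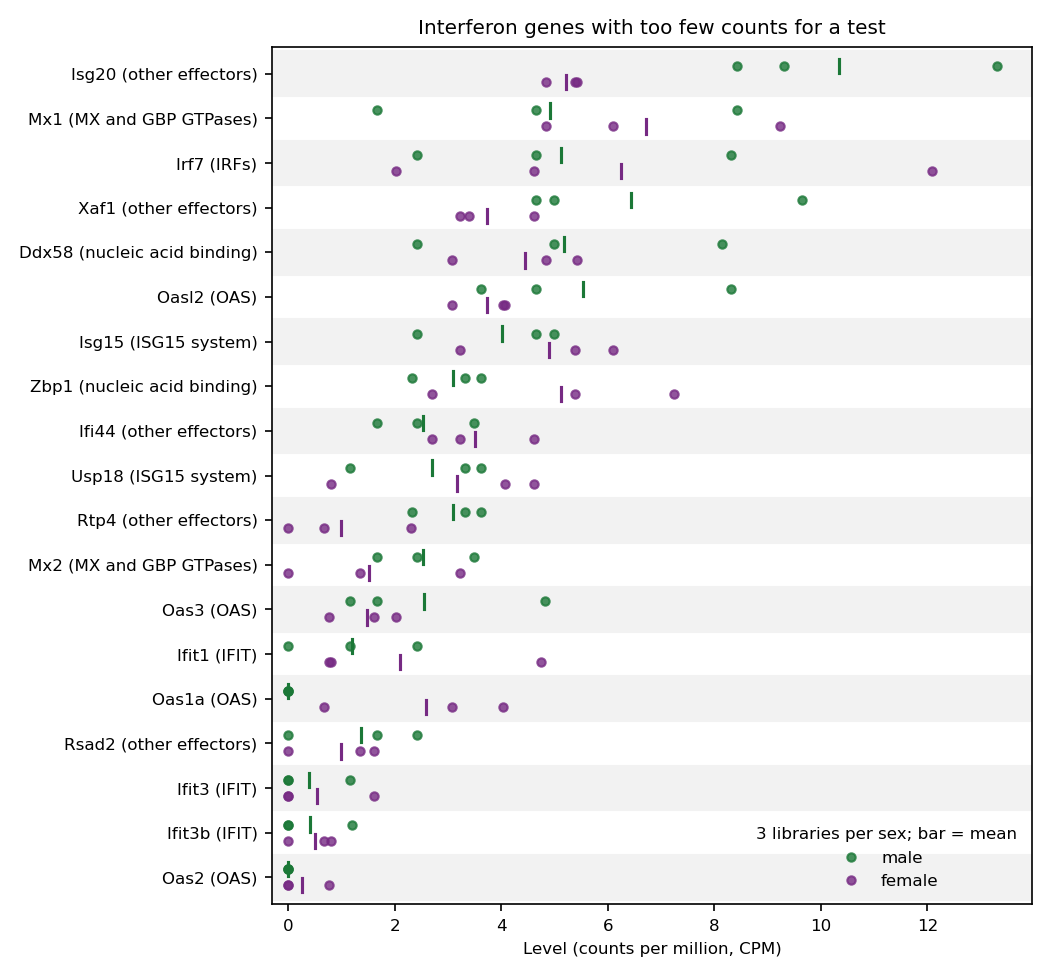
Level in CPM of the 19 interferon genes with too few counts for a test, in each library, with male points above female points in each row and a bar at the mean. No library exceeds 13.3 CPM, and Oas1a has all male points at 0. A single count is worth more CPM in the smaller male libraries.

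The levels were set beside the promoter matches shown above. The 15 genes with an ISRE match had a median level of 4.81 CPM (1.47 per kilobase), from 0.448 (Ifit3b) to 90.2 (Gbp3), and 7 of them could be tested. The 19 genes with a window and no match had a median of 40.6 CPM (7.22 per kilobase), and 14 could be tested. For GAS the order was the other way, with medians of 36.0 CPM (7.14 per kilobase) for the 12 genes with a match and 6.80 CPM (2.12 per kilobase) for the 22 without. Among the receptors only Ifnar1 and Ifnar2 held a match, a GAS match each. A match is a description of these letters and not a measured binding site. Gbp3 and Isg15 both hold overlapping ISRE matches close to the start, and stood at 90.2 and 4.46 CPM (27.6 and 5.90 per kilobase).

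The rest of the pathway was read from a list of other interferon genes chosen for their textbook role. None of 21 genes for interferons themselves had a row in the table, in which every row has at least 1 count. The 7 markers of plasmacytoid dendritic cells, which are known as makers of type I interferon, summed to 186 to 198 CPM in male and 142 to 212 CPM in female libraries, with 3 tested and 0 called. Most of that sum was Tcf4, while Siglech averaged 7.55 CPM in males and 9.82 CPM in females. The table held 70 further pathway genes, of which 44 could be tested, and 0 were higher and 0 lower in males past the threshold (0.426% and 0.154% of all tested genes were). At an unadjusted p under 0.05 edgeR called 1 of the 44 tested, limma-voom 1 and DESeq2 0, where they called 11.3%, 11.0% and 5.9% of all tested genes. The median log2 fold change of those tested was -0.04. The 70 genes together held 0.613% ± 0.053 of counts in male and 0.671% ± 0.017 in female libraries (SD), more than the 44 genes described first.

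Ly6e, an interferon-inducible surface protein that blocks entry of some viruses, had the highest CPM of these genes, with 2333, 2322 and 2167 CPM in male and 2447, 2346 and 2376 CPM in female libraries (log2 fold change -0.07 ± 0.12). Irf8, a factor that directs the monocyte and dendritic lineages, had 1132, 998 and 1069 CPM in male and 1120.0, 1043 and 1180.0 CPM in female libraries (-0.06 ± 0.12). Ptpn6, the phosphatase SHP-1, averaged 236 ± 20.5 CPM in males and 239 ± 44.7 CPM in females. Shisa5 had the smallest p among these genes, with means of 97.5 ± 2.89 CPM in males and 121.0 ± 4.65 CPM in females. All its male libraries lay below all female ones, and its log2 fold change of -0.31 ± 0.13 did not pass (adjusted p = 0.351, edgeR's quasi-likelihood test).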

How the data were processed

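Poly(A)-primed BRB-seq was run on total RNA, with a UMI and a sample barcode in read 1 and the insert in read 2, per the labels' protocols. The values are raw counts per gene as deposited by the authors, without normalisation, which the values bear out as whole numbers with unequal totals. The submitters' processing notes list HISAT2 2.2.1, featureCounts 2.0.1, Trim Galore 0.6.7, UMI-tools and DESeq2, and the builds GRCm38 and GRCh38, with no order or role. Collapsing of UMIs and use of strand are not given in the sources used here. PCR copies may therefore be among the counts, and genes that overlap may share reads. Counting intervals and floors (3 counts) cover counting error only.

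Genes were kept by filterByExpr (minimum count 10, minimum total 15, sex as group), scaled by TMM and tested with the quasi-likelihood F test of edgeR 4.0.16 in R 4.3.3, male minus female, with no covariate. P-values were adjusted by Benjamini-Hochberg over all tested genes. The SE is the log2 fold change over the root of F. The alternatives tried were scaling by RLE, by the upper quartile and by library size, DESeq2 1.42.0, limma-voom 3.58.1, no filter, a stricter filter, leaving out each library, and the replicate number as a block. The steps were tested on simulated data. Coordinates are of GENCODE M21 (GRCm38). Genes given in every library were set by rule: an unadjusted p under 0.05, the 12 highest levels, all receptors and JAK-STAT members, and the highest of each role. Other tested members have their range or mean and fold change, and untested ones their total counts. Means and intervals of Rtp4 and Xaf1, and means of Ddx58, Zbp1, Mx1, Mx2, Oas3, Oasl2 and Rsad2, were added after their values were seen. Irf7, Oas1a, Isg15, Isg20 and Gbp2 were given in every library, and single libraries of Ifit1 and Oas2 named, after their values were seen. The members and lists were chosen with earlier results of these data known.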

Additional observations from a re-analysis of the deposited data

How the results depend on the processing

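No interferon gene was called in either direction under any of the 14 alternatives, with 23 to 44 of the 44 genes tested, and the same held for the further pathway genes. The lowest adjusted p of any interferon gene was 0.089, for Ifnar2 without male replicate 1. Counts over all genes moved more. Without single libraries, 19 to 337 genes were higher and 4 to 78 lower in males, fewest without male replicate 3 and most without male replicate 1. Genes lower in males numbered 13 in the reported fit, 23 scaled by library size only, 7 with DESeq2, 8 with limma-voom and 8 without female replicate 2. With no filter 81 genes were higher and 35 lower.

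The median log2 fold change of the tested interferon genes was -0.10 as reported, -0.19 scaled by library size only, and -0.13 to -0.07 without single libraries. Over all tested genes it was -0.003 as reported and -0.092 scaled by library size only. The share of counts held by all 44 genes ran from 0.116% to 0.126% in males and from 0.136% to 0.140% in females without single libraries, and was 0.145% in females without mitochondrially encoded genes.

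The titles number the replicates alike in both sexes, but same-numbered libraries did not deviate together (correlations 0.030, 0.034 and 0.048), so the numbers were not taken as pairs. With the replicate block, 56 genes were higher and 22 lower, and 0 interferon genes were called.

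Of 402 fold changes of the genes named, 24 changed sign and none became a call. Parp14 was -0.07 scaled by library size only, -0.02 with no filter and 0.00 with upper-quartile scaling. Without single libraries the range spanned 0 for Jak1 (-0.06 to 0.22), Tyk2 (-0.10 to 0.02), Irf2 (-0.10 to 0.02), Dhx58 (-0.51 to 0.02), Gbp2 (-1.06 to 0.16), Parp14 (-0.10 to 0.15), Dtx3l (-0.22 to 0.09), Ifi27 (-0.10 to 0.35), Ifi35 (-0.14 to 0.13), Samhd1 (-0.11 to 0.08) and Ptpn6 (-0.16 to 0.07). Depth limits the 19 genes below the filter, for which 3 counts are worth 1.31 CPM over the male and 0.747 CPM over the female libraries.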
